A study of Mus musculus with 73 samples.

Results

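Carcinosarcomas of the mouse mammary gland contain a carcinoma component and a spindle-cell, sarcoma-like component. The tumours described here were those with a labelled epithelial share of at least 75%, and they were chosen by their histology, percentage and genotype labels alone. They numbered 9 of the 73 tumours of the series and 9 of the 29 tumours of sequencing run 5625. The L1363P group held 6 tumours of genotype KB1(L1363P)P, numbered 6, 45, 53, 54.1, 54.2 and 21.1, with labelled epithelial shares of 95, 85, 85, 90, 75 and 98%. The KP group held 3 tumours, numbered 26.02A, 130.10A and 5, with shares of 80, 90 and 90%. The series compares mammary tumours of mice carrying Brca1 p.L1363P, which alters the coiled coil by which BRCA1 binds PALB2, with KP, KB1P and KB2P model tumours. In the established KP model p53 is lost in mammary epithelium, and KB1P tumours lose BRCA1 as well. The name KB1(L1363P)P is built on KB1P, so both groups may share the p53 loss. The alleles, the Cre line and its promoter are not spelled out in the labels. Ages and treatments are not given in the labels. They do not say that tumours came from separate animals, tumours 54.1 and 54.2 share a number, and the p-values therefore measure only the spread between these samples, which may in part be technical.

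BRCA1 forms a heterodimer with BARD1, and through its coiled coil it recruits PALB2, which in turn brings BRCA2 to resected DNA breaks. Loss of this chain impairs homologous recombination, and inherited BRCA1 variants predispose to mammary cancer. The comparison asks whether carcinosarcomas of similar epithelial share differ in RNA between a genotype named for the altered coiled coil and one whose label names no change of Brca1.

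The labelled epithelial percentages were similar in both groups. They averaged 88.0 ± 8.25% in L1363P tumours (SD, n = 6) and 86.7 ± 5.77% in KP tumours (SD, n = 3), a difference of 1.33 percentage points (exact two-sided permutation test, p = 0.929). Its sign turned without L1363P tumour 6, without L1363P tumour 21.1 or without KP tumour 26.02A, when it was -0.0667, -0.667 and -2.0 points. Library totals of the 9 tumours were 14510856 to 16600855 counts, with a median of 15661624.

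No gene differed between the L1363P and KP carcinosarcomas at a Benjamini-Hochberg adjusted p under 0.05. The test was edgeR's quasi-likelihood F test, in a single fit of all 29 tumours of the run, and levels are given as CPM, which divides counts by the scaled size of each library. The fit tested 16147 genes and called 0 in each direction (0%), and the smallest adjusted p was 1. At an unadjusted p under 0.05 there were 458 genes (2.84%), of which 302 were higher in L1363P tumours (1.87%) and 156 lower (0.966%). That share was under the 0.05 that evenly spread p-values would give. The spread behind each SE came from all 29 tumours and not from these 9 alone. A fit of the 9 carcinosarcomas alone also gave 0 calls, with 325 of 14507 genes at an unadjusted p under 0.05. The groups did not overlap, with all 6 L1363P tumours on one side of all 3 KP tumours, for 109 genes that were higher (0.675%) and 112 that were lower (0.694%). For 7748 genes (48%) the 95% interval of the log2 fold change lay within -1 to 1, and the median standard error (SE) over all genes was 0.39. For the other genes the interval still held a change of 2-fold or more in at least one direction. The other tools gave 0 calls with limma on the deposited log2 values (244 genes at an unadjusted p under 0.05) and 7 with DESeq2 (667 genes). Of the DESeq2 calls, Lamp5, AU015836, Mmd2 and Lrfn5 were detected almost only in L1363P tumour 6, at 18.6, 1.45, 24.8 and 19.5 CPM, against at most 0.0686 CPM in any other tumour. Igkv5-39 was at 0.0623 CPM in KP tumour 26.02A and at 0 in the other 8, and Tmem200c did not pass the filter on low counts. Leaving out KP tumour 5 gave 2 calls in edgeR, Slc13a4 (log2 fold change -7.83, adjusted p = 0.00726) and Mup6 (-7.01, adjusted p = 0.00125), and leaving out KP tumour 26.02A gave 1, Slc13a4 (-7.83, adjusted p = 0.0318). Neither Slc13a4 nor Mup6 was among the 16147 genes of the main fit. They entered only where the filter on low counts let 16731 genes through with 1 KP tumour left out. The genes called under these alternatives were named after their values were seen.

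**Figure D1:**
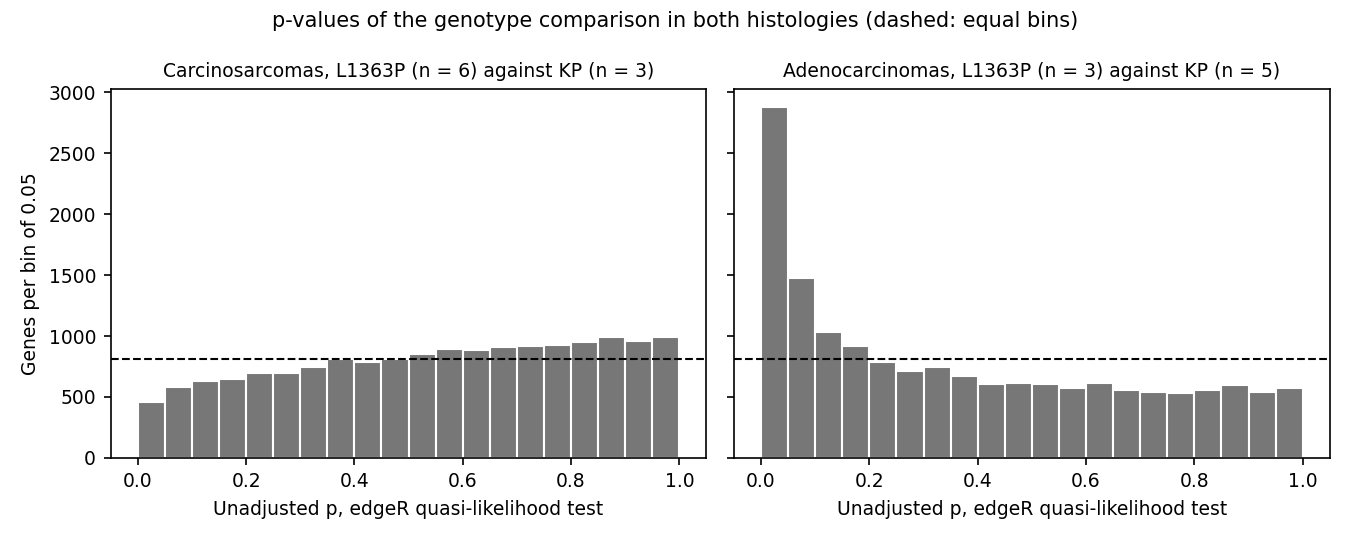
Histograms of unadjusted p-values (x axis) against the number of the 16147 tested genes per bin (y axis) for L1363P against KP carcinosarcomas (left) and L1363P against KP adenocarcinomas (right). The first bin holds 458 genes on the left and 2884 on the right, and the dashed line marks equal bins.

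Brca1 itself, the gene carrying the variant, had 27.9 to 51.4 CPM in L1363P tumours, with a median of 46.4. In KP tumours it had 48.6, 73.6 and 73.4 CPM. The groups overlapped through KP tumour 26.02A, which lay below L1363P tumours 53 and 54.2. The log2 fold change was -0.58 (SE 0.30, 95% interval -1.19 to 0.03, p = 0.0602 before adjustment in edgeR's quasi-likelihood fit and adjusted p = 1). Brca1 lies on chromosome 11 (101488764 to 101551955, minus strand, GRCm38), and a gene total does not show which allele or which exons gave the reads.

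The partners of BRCA1 gave smaller or opposite differences. Bard1, which encodes its heterodimer partner, had 17.6 to 27.6 CPM in L1363P tumours (median 26.9) and 19.1, 26.5 and 32.8 CPM in KP tumours, a log2 fold change of -0.05 (SE 0.33). L1363P tumour 6 lay alone at 17.6, while the other 5 L1363P tumours stayed between 24.5 and 27.6 CPM. Palb2, the bridge whose contact with BRCA1 the variant alters, had 9.53 to 20.0 CPM in L1363P tumours (median 14.2) and 12.8, 12.9 and 14.7 CPM in KP tumours. Its log2 fold change was 0.09 (SE 0.28, 95% interval -0.48 to 0.65), so a 2-fold change in either direction lay outside the interval. Brca2, which acts downstream of PALB2 in homologous recombination, had 26.2 to 58.6 CPM in L1363P tumours (median 33.8) and 28.8, 22.8 and 27.3 CPM in KP tumours. L1363P tumours 6 and 54.1 were the high ones, at 58.6 and 54 CPM, and the log2 fold change was 0.56 (SE 0.34, p = 0.106 before adjustment in the edgeR fit). Trp53, which encodes p53, had 16.8 to 24.7 CPM in L1363P tumours (median 19.8) and 17.6, 20.9 and 17.1 CPM in KP tumours, with overlapping groups and a log2 fold change of 0.13 (SE 0.29).

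**Figure D2:**
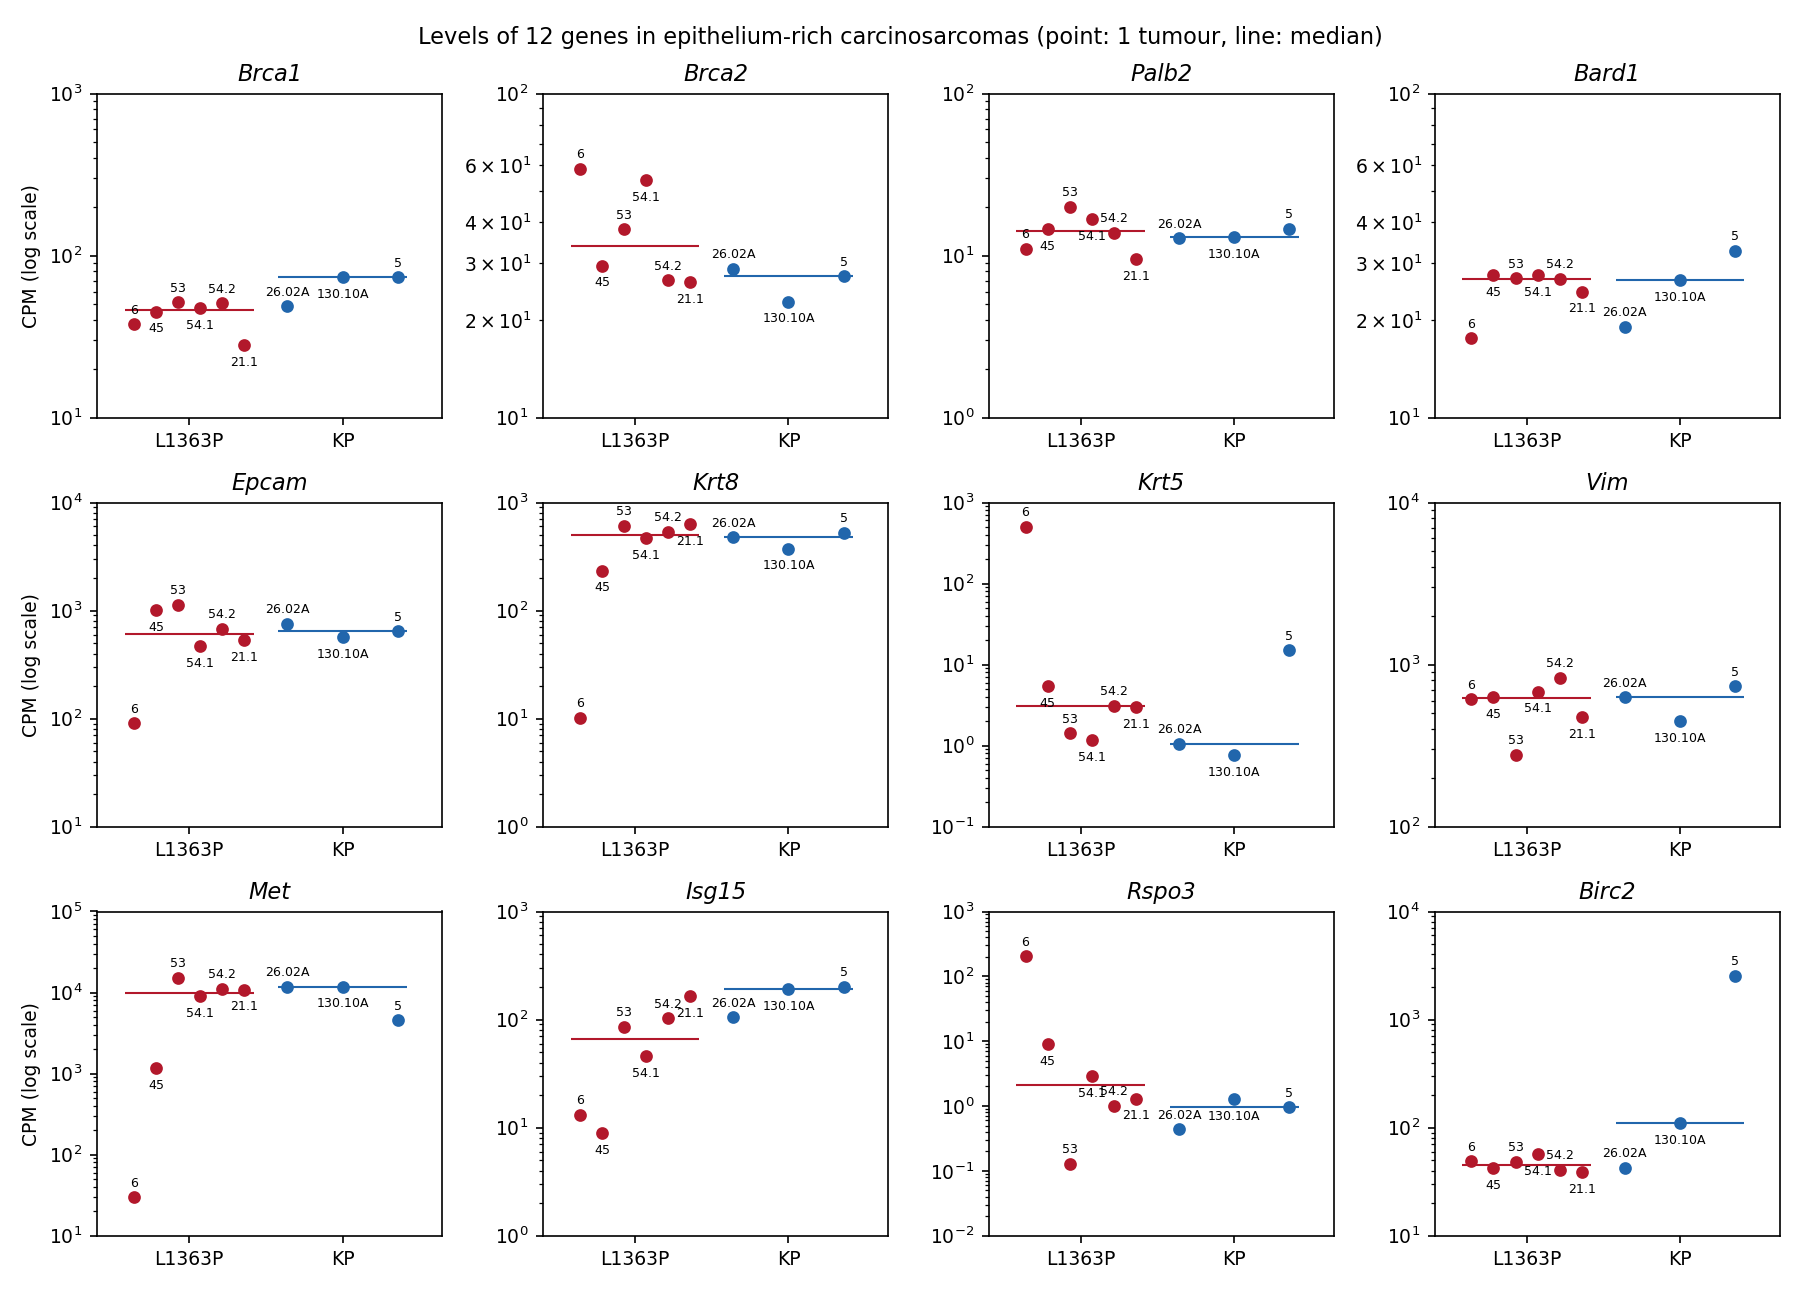
CPM on a log scale (y axes) of 12 genes in each of the 6 L1363P tumours (red, left) and 3 KP tumours (blue, right), with tumour numbers beside the points and the group median as a line. Brca1 overlaps only through KP tumour 26.02A at 48.6 CPM, while L1363P tumour 6 stands alone for Epcam, Krt8, Krt5, Met and Rspo3, and KP tumour 5 for Birc2.

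The DNA repair lists were close to the background of all genes, whose median log2 fold change was 0.04. Of 24 tested genes of the BRCA1 complexes and homologous recombination, 0 passed the test in either direction (0% of all genes did), the median was -0.06, and 20 had a 95% interval within -1 to 1. All 12 Fanconi anaemia genes, which act on DNA crosslinks, had such an interval, with a median of -0.01. Of 14 genes of end joining and resection control 13 did, with a median of -0.03, and all 9 checkpoint kinase genes and partners did, with a median of 0.00. In these lists the groups did not overlap for 2 genes, both lower in L1363P tumours (0.694% of all tested genes). Rad51d, a homologous recombination gene, had 10.4 to 13.3 CPM in L1363P tumours (median 12.3) and 15.1, 13.7 and 15.5 CPM in KP tumours. Every L1363P tumour was below every KP tumour, by a narrow margin, and the log2 fold change was -0.29 (SE 0.18, p = 0.11 before adjustment in edgeR). Timeless, a replication fork and checkpoint factor, had 30.5 to 45.3 CPM in L1363P tumours (median 39.9) and 48.6, 45.5 and 50.2 CPM in KP tumours (-0.34, SE 0.29). Trp53bp1 and Rif1, which restrain the resection of broken ends, had log2 fold changes of -0.22 (SE 0.18) and -0.42 (SE 0.29).

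Genes of the cell cycle and of p53 did not pass the test either. The median was -0.14 over 18 DNA replication genes, 16 of them with an interval within -1 to 1, and -0.16 over 16 proliferation genes, 12 of them with such an interval. Mki67, a marker of cycling cells, had 274 CPM in L1363P tumour 21.1 and 777 in tumour 54.1, the extremes of its group, and 448, 687 and 332 CPM in KP tumours (log2 fold change 0.08, SE 0.32). The p53 list, which holds Trp53 and 14 of its targets, had a median of 0.13, or 0.07 without KP tumour 5. Of its 15 members, 9 were positive and 6 negative. Their summed level was 536.6 to 703.7 CPM in L1363P tumours, highest in tumour 6, and 458.3 to 533.7 CPM in KP tumours, and these ranges did not overlap. The groups of 1 member were apart on the higher side (0.675% of all tested genes) and of 1 on the lower side (0.694%). Perp, a p53 target and desmosome gene, was apart on the higher side, with 102 to 169 CPM in L1363P tumours (median 110.1) and 98.8, 59.7 and 65.6 CPM in KP tumours (0.67, SE 0.95). Bbc3, which encodes the apoptosis inducer PUMA, was apart on the lower side, with 2.57 to 5.19 CPM in L1363P tumours and 6.79, 5.35 and 5.48 CPM in KP tumours (-0.54, SE 0.40). In the edgeR fit 1 other member of the list was lower at an unadjusted p under 0.05 (0.966% of all tested genes). Cdkn1a, which encodes the cell-cycle inhibitor p21, had 22.5 to 53.6 CPM in L1363P tumours and 25.7, 21.5 and 19.6 CPM in KP tumours.

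The gene lists drawn up for this comparison numbered 38, with 504 of their 535 members passing the filter on low counts. Of those 504, 0 passed the test, 15 (2.98%) had an unadjusted p under 0.05, against 2.84% of all tested genes, and 9 (1.79%) had groups that did not overlap, against 1.37% of all tested genes. Both shares were near those of all genes. The members had been chosen with results of these tumours known, so the counts are a description.

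**Figure D3:**
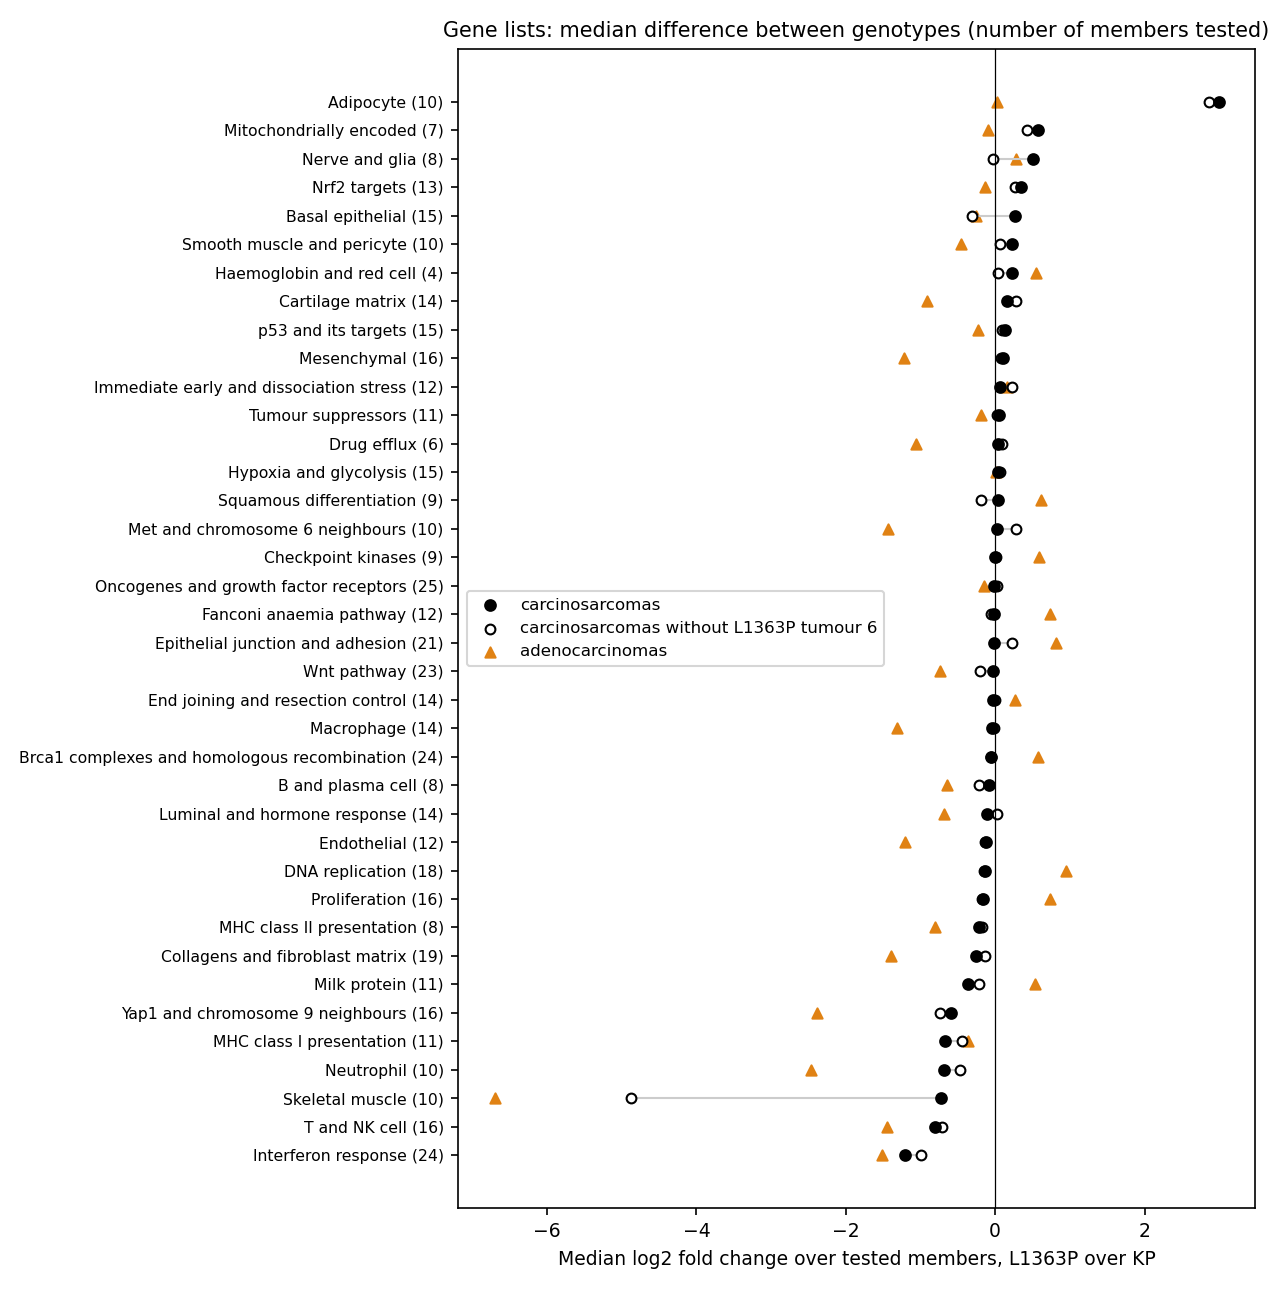
Median log2 fold change of L1363P over KP (x axis) for each of the 38 gene lists (y axis, number of tested members in brackets) in carcinosarcomas (black), in carcinosarcomas without L1363P tumour 6 (open) and in adenocarcinomas (orange triangles). In carcinosarcomas the repair lists lie near 0 and the interferon list at -1.21.

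The labelled epithelial nature was checked against markers. Over 21 epithelial junction and adhesion genes the summed level was 4024 to 5903 CPM in L1363P tumours 45, 53, 54.1, 54.2 and 21.1, and 3561 to 4233 CPM in the 3 KP tumours. L1363P tumour 6, labelled 95% epithelial, had 440.6 CPM and stood apart from the other 8. Its Epcam, an epithelial adhesion molecule, was at 90.4 CPM, against 472 to 1129.6 CPM in the other L1363P tumours and 569.8 to 755 CPM in KP tumours. Krt8, a keratin of simple epithelium, was at 10.2 CPM, against 234 to 627 in the other L1363P tumours and 375 to 526.4 in KP tumours. Krt5 and Trp63, markers of basal epithelium, were at 502 and 456 CPM in tumour 6, and did not exceed 5.43 and 36.1 CPM in the other L1363P tumours or 15 and 50.6 CPM in KP tumours. Epcam and Krt8 of tumour 6 were the lowest of the 9 tumours. The whole list of 15 basal epithelial genes, which holds Krt5 and Trp63, summed to 1781 CPM in tumour 6, within the 1522 to 1839 CPM of the other L1363P tumours, and to 1692 to 1976 CPM in KP tumours. In bulk RNA fewer cells of a type and less RNA per cell cannot be told apart. The spindle component gave overlapping values. Vim, an intermediate filament of mesenchymal cells, had 277 to 830.0 CPM in L1363P tumours and 628, 447 and 738 CPM in KP tumours (log2 fold change -0.05, SE 0.44). The medians were 0.11 over 16 mesenchymal and -0.26 over 19 collagen and fibroblast matrix genes. Tumour 6 had the lowest mesenchymal sum of the 9 tumours, at 2932 CPM, against 3051 to 10180 CPM in the other L1363P tumours. Its collagen and fibroblast matrix sum was 4930 CPM, against 3523 to 21380 CPM in the other L1363P tumours. Its smooth muscle and pericyte sum was the highest of the 9, at 1471 CPM.

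Tumour 6 also departed from the rest over the whole transcriptome. Pearson's r of log2 CPM across all tested genes was 0.857 to 0.879 between tumour 6 and the others, and 0.936 to 0.979 among the other 8. Among those 8 the pairs of an L1363P with a KP tumour had a median r of 0.956, the L1363P pairs 0.961 and the KP pairs 0.951. Genes are not independent replicates, and these values are descriptions. The first principal component of the 2000 most variable genes held 45.9% of the variance, with tumour 6 at 127.6 and the other 8 between -35.0 and 7.8. The second held 13.6% and ran between L1363P tumour 45 (54.3) and KP tumour 130.10A (-47.1). In tumour 6, 196 genes of at least 20 CPM were at least 4 times the next highest tumour, against 0 to 19 such genes in each other tumour, and 117 were 4 or more times below the next lowest. Leading examples were Gjc3, a connexin of myelinating glia, at 372.4 CPM with 1.10 in the next tumour, Bcan, which encodes the matrix proteoglycan brevican, at 172.0 with 0.897, and Mmd2 at 24.8 with 0.0686. Fgfr2, a receptor for fibroblast growth factors, was at 103 CPM in tumour 6 and 0.891 to 3.10 in the other L1363P tumours, with 1.49 to 2.38 in KP tumours. It was named after its values were seen.

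Many of the genes with small unadjusted p-values sat together on chromosome 10 in tumour 6. The tested genes from 29344176 to 56228689 on chromosome 10 (GRCm38) included 6 stretches of at least 5 neighbouring genes at 4 or more times the median of the 9 tumours. The stretches ran from Rnf146 to Hint3, Hey2 to Trdn, E130307A14Rik to Armc2 (22 genes), Foxo3 to Sec63, Sobp to Rtn4ip1 and Dcbld1 to Msl3l2. The span was drawn from the first to the last of these stretches. It holds 92 tested genes, of which the 57 in the stretches meet the 4-fold limit by definition, so the following counts describe the choice and test nothing. Of the 92 genes, 79 were highest in tumour 6, 68 were at least 4 times the median, and 47 (51.1%) had an unadjusted p under 0.05, all higher in L1363P tumours. Rspo3, a secreted enhancer of Wnt signalling, had 205 CPM in tumour 6, 0.129 to 9.08 CPM in the other L1363P tumours and 0.436, 1.29 and 0.956 CPM in KP tumours. Its log2 fold change of 5.35 (SE 1.78, p = 0.00589 before adjustment) was 1.68 without that tumour (p = 0.134 before adjustment in edgeR). Smpd2, which encodes a sphingomyelinase, was at 504.7 CPM in tumour 6, 19.6 to 29.2 in the other L1363P tumours and 14.6 to 23.4 in KP tumours. Wasf1, an actin regulator, was at 347.2 CPM in tumour 6, 11.2 to 19.3 in the other L1363P tumours and 9.60 to 13.6 in KP tumours. Without tumour 6 the log2 fold changes of Smpd2 and Wasf1 were 0.33 and 0.39. Slc35f1, in the last stretch, was at 735 CPM in tumour 6, 4.30 to 31.9 in the other L1363P tumours and 3.38 to 6.44 in KP tumours. The span also held Rev3l, the catalytic subunit of translesion polymerase zeta, at 808 CPM in tumour 6, 79.5 to 151 in the other L1363P tumours and 88.1 to 107 in KP tumours. Rev3l was named after its values were seen. Of all 302 genes higher at an unadjusted p under 0.05, 226 (74.83%) were highest in tumour 6, and 65 (21.52%) were on chromosome 10, which carries 4.558% of tested genes. Tumour 6 was the highest of the 9 for 27.0% of all tested genes. Without it 369 genes had an unadjusted p under 0.05, and 0 passed the test.

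**Figure D4:**
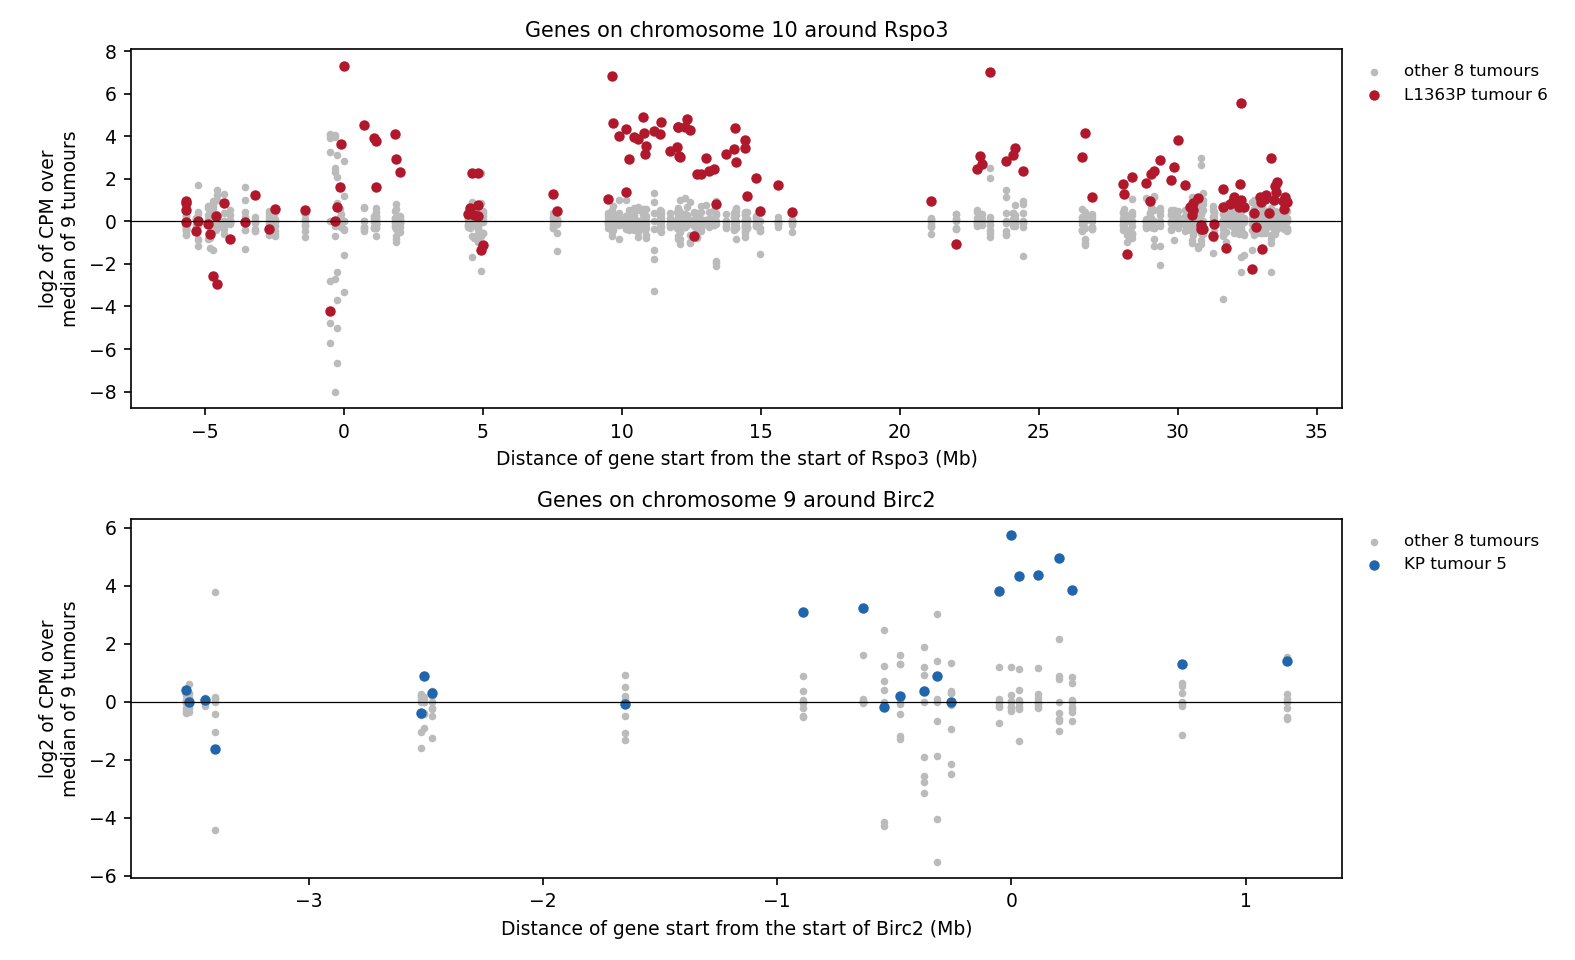
log2 of CPM over the median of the 9 tumours (y axes) against distance of the gene start from Rspo3 on chromosome 10 (top) and from Birc2 on chromosome 9 (bottom), in megabases, for genes with a median of at least 1 CPM. In the top panel L1363P tumour 6 (red) lies above the other 8 tumours (grey) in separate blocks, and in the bottom panel KP tumour 5 (blue) does so around Birc2 and Yap1.

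A second block lay on the lower side. In KP tumour 5, 5 neighbouring genes from Mmp7 to Yap1 on chromosome 9 (7692090 to 8004596, GRCm38) were at a median of 20.0 times the median of the 9 tumours. Birc2, an inhibitor of apoptosis, had 38.7 to 56.8 CPM in L1363P tumours and 42.4, 111 and 2554 CPM in KP tumours 26.02A, 130.10A and 5. Its log2 fold change of -4.30 (SE 1.19, p = 0.00132 before adjustment in edgeR) had the smallest p-value on the lower side among genes that differed by at least 1 log2 unit and averaged at least 1 in log2 CPM, and without KP tumour 5 it was -0.74 (p = 0.54 before adjustment in edgeR). Yap1, the transcriptional coactivator of the Hippo pathway, had 193 to 271 CPM in L1363P tumours and 246, 503 and 4627 CPM in KP tumours. In both genes KP tumour 130.10A was above all L1363P tumours as well, at a far lower level than tumour 5, and KP tumour 26.02A lay within the L1363P range. High levels were not limited to KP tumours of the run. The 3 L1363P carcinosarcomas under 75% epithelium, outside this comparison, had 41.1 to 2780 CPM of Birc2 and 240.1 to 14410 CPM of Yap1. Foxj1, a regulator of motile cilia, Ppp1r12b, a myosin phosphatase subunit, and Bpifb5, on chromosomes 11, 1 and 2, were 3 further genes on the lower side, at 128, 214.5 and 280.4 CPM in KP tumour 5. They had at most 7.38, 36.1 and 22.3 CPM in L1363P tumours and at most 6.44, 26.9 and 47.3 CPM in KP tumours 26.02A and 130.10A. Without KP tumour 5 the log2 fold changes of Foxj1, Ppp1r12b and Bpifb5 were -0.13, 0.14 and -1.70. Of the 156 genes lower at an unadjusted p under 0.05, 95 (60.9%) had their highest level in KP tumour 5, which was the highest for 11.69% of all tested genes. Counts of RNA do not measure DNA copies, and DNA copy number was not analysed here.

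Met, the receptor for hepatocyte growth factor, was high in most tumours of both genotypes. In L1363P tumours 53, 54.1, 54.2 and 21.1 it had 15220.0, 9086, 11202 and 10873 CPM, while L1363P tumours 45 and 6 had 1175 and 30.1 CPM. KP tumours had 11850.0, 11857 and 4523 CPM. The log2 fold change was -0.25 (SE 1.23, 95% interval -2.77 to 2.28), an interval too wide to separate the groups. Which of its chromosome 6 neighbours were high with it differed by tumour. Capza2, an actin-capping subunit next to Met, had 14918, 13545 and 13288 CPM in L1363P tumours 54.1, 54.2 and 21.1 but 1459.9 in tumour 53 and 2392 in tumour 45, and 7409, 9121 and 5716 CPM in KP tumours. Tes, a focal adhesion gene on the other side, had 578 CPM in L1363P tumour 21.1 and 116 in KP tumour 130.10A, which had 10873 and 11857 CPM of Met. It had 8677 CPM in L1363P tumour 54.2 and 7549.5 in KP tumour 26.02A. L1363P tumour 6 was low for all 3, with 201 CPM of Capza2 and 133 of Tes.

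The other genes with the smallest p-values under the same limits of fold change and level were Asrgl1, Gfap, Rgs3 and Lpcat4. Asrgl1, an asparaginase, had 24.1, 11.6, 5.66, 12.1, 16.2 and 7.06 CPM in the L1363P tumours and 7.35, 5.60 and 3.06 CPM in KP tumours (log2 fold change 1.26, SE 0.40, p = 0.0038 before adjustment). Gfap, an intermediate filament of glia, had 1.51 to 5.90 CPM in L1363P tumours and 0.81, 0.193 and 0.956 CPM in KP tumours (2.48, SE 0.81, p = 0.00505 before adjustment). Its groups did not overlap, and its level was low in all 9 tumours. Lpcat4, an enzyme of phospholipid remodelling, had 19.9 to 34.1 CPM in L1363P tumours (median 22.6) and 30.0, 66.3 and 63.3 CPM in KP tumours (-1.10, SE 0.32, p = 0.00183 before adjustment). Rgs3, a regulator of G-protein signalling, had 9.14 to 26.5 CPM in L1363P tumours (median 20.8) and 16.6, 37.2 and 82.1 CPM in KP tumours (-1.19, SE 0.34, p = 0.00174 before adjustment in edgeR). Without KP tumour 5 the log2 fold change of Rgs3 was -0.43 (p = 0.215 before adjustment in edgeR). In Lpcat4, Rgs3 and Asrgl1 1 of the 3 KP tumours lay inside the L1363P range. In the edgeR fit the adjusted p of each of these 4 genes was 1.

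Interferon-stimulated genes had one sign throughout the list, without a call. Interferon signalling acts on interferon-stimulated response elements in promoters, and the genes it induces include antiviral effectors and chemokines. All 24 tested members of the list had a negative log2 fold change, against 44.9% of all tested genes, with a median of -1.21 and a range of -2.16 to -0.32. None passed the test in either direction (0% of all genes did), none had an unadjusted p under 0.05, and 4 had groups that did not overlap, all on the lower side (0.694% of all genes). Summed over the list, the level was 353.4 CPM in L1363P tumour 6, 425.9 in 45, 2070 in 53, 1356 in 54.1, 2060 in 54.2 and 3114 in 21.1, and 2503, 4083 and 3103 CPM in KP tumours. L1363P tumours 6 and 45 were thus far below the rest, and L1363P tumour 21.1 lay within the KP range. The median was -0.99 without tumour 6 and -0.97 without tumour 45, and it lay between -1.53 and -0.97 with any single tumour left out.

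Promoter sequences of 3 of these genes are shown because the core letters of the interferon-stimulated response element can be read in them. They are the 250 bases before the RefSeq gene start on GRCm38.p6, 5′ to 3′ in the direction of the gene, which is on the minus strand in each case. Capitals mark the matches to the motif GAAANNGAAA on either strand, where N is any base, and matches in Isg15 overlap each other.
Isg15, chr4:156200819-156201068, ubiquitin-like modifier: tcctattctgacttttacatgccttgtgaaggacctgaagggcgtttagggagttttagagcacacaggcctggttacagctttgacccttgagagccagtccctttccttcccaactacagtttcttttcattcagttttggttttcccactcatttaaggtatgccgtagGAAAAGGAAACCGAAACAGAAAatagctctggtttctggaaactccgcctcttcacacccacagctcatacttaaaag
Rsad2, chr12:26456453-26456702, the antiviral enzyme viperin: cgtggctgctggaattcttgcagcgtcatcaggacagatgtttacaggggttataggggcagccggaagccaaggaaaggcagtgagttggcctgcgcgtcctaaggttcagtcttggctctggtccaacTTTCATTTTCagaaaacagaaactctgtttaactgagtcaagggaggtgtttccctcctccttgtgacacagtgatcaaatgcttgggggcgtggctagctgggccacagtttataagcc
Cxcl10, chr5:92348890-92349139, a T cell attracting chemokine: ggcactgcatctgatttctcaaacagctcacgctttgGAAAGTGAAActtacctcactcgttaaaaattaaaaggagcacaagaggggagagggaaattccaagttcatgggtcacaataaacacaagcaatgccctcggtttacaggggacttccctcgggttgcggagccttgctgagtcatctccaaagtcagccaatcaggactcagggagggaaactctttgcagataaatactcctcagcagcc

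In Isg15 the capitals hold 3 overlapping matches, while Rsad2 has 1 match on the reverse strand and Cxcl10 has 1. The motif was held by 9 of the 17 interferon list members that have a promoter in the RefSeq table (52.9%), against 936 of 27025 symbols (3.46%). A match is a description of letters and not a binding site. The list was not chosen by the motif, but it holds genes known to be induced by interferon. A larger share than over all symbols was therefore fixed in advance and says nothing about these tumours. Isg15 had 13.1, 8.96, 85.7, 46.0, 103 and 164 CPM in L1363P tumours 6, 45, 53, 54.1, 54.2 and 21.1, and 105, 193 and 200.5 CPM in KP tumours (log2 fold change -1.25, SE 0.89). Only L1363P tumour 21.1 reached the KP range. Rsad2 had 6.66, 5.79, 41.9, 41.3, 96.0 and 96.9 CPM in the L1363P tumours and 126, 103 and 160.1 CPM in KP tumours, with no overlap (-1.43, SE 0.97). Cxcl10 had 3.81, 3.54, 21.0, 8.76, 27.4 and 44.4 CPM in the L1363P tumours and 51.1, 64.9 and 127 CPM in KP tumours, with no overlap (-2.16, SE 1.12, 95% interval -4.46 to 0.15). The paralogues Mx1 and Mx2, antiviral GTPases, did not overlap either, at 5.08 to 46.9 and 2.74 to 35.3 CPM in L1363P tumours and 60.2 to 80.5 and 47.4 to 57.7 CPM in KP tumours. The DNA sensor gene Cgas and its adaptor Tmem173, which encodes STING, had smaller differences, with log2 fold changes of -0.47 (SE 0.43) and -0.32 (SE 0.40).

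Genes of MHC class I presentation, which interferon also induces, had the same sign. Of the members, H2-K1 and H2-D1 are similar paralogues, between which counting can split reads. All 11 members were negative, with a median of -0.67, and 0 passed the test. Their summed level was 1317 CPM in L1363P tumour 6 and 2249 in tumour 45, 5569 to 9327 CPM in the other L1363P tumours and 7856 to 9121 CPM in KP tumours. Nlrc5, the transactivator of MHC class I genes, was the member whose groups did not overlap, on the lower side (0.694% of all tested genes), at 10.2 to 142 CPM in L1363P tumours and 145, 185 and 198 CPM in KP tumours (-0.92, SE 0.75). B2m, the light chain of every class I molecule, had 378 to 2926 CPM in L1363P tumours and 2559 to 3011 CPM in KP tumours (-0.65, SE 0.54). Of the immune-cell lists, those of T and NK cells and of neutrophils also leaned to the lower side, with 0 members passing the test. Of 16 T and NK cell genes 13 were negative, with a median of -0.80, or -0.71 without tumour 6, and of 10 neutrophil genes 9 were, with a median of -0.68, or -0.47 without tumour 6. Macrophage and B cell lists had medians near 0. Of 14 macrophage genes 10 were negative, with a median of -0.04, and of 8 B and plasma cell genes 5 were, with a median of -0.08. Summed levels of 16 T and NK cell genes were 18.22 to 38.26 CPM in L1363P tumours and 22.75 to 47.28 CPM in KP tumours, and those of 14 macrophage genes were 1163 to 2586 CPM in L1363P tumours and 1327 to 2244 CPM in KP tumours. T and NK cell genes were low in all 9 tumours, with Cd3e, a T cell receptor subunit, at 3.55 CPM or less. Neutrophil genes summed to 12.16 to 147.5 CPM in L1363P tumours, lowest in tumour 6, and 79.55 to 187.1 CPM in KP tumours. L1363P tumours 6 and 45, which had the lowest interferon sums, had 28820 and 26100 CPM of mitochondrially encoded genes, against 11870 to 17320 CPM in KP tumours. L1363P tumour 53 had 26430 CPM of these genes, with an interferon sum of 2070 CPM. The parts of infiltrating cells and of RNA quality in the interferon values were not tested.

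**Figure D5:**
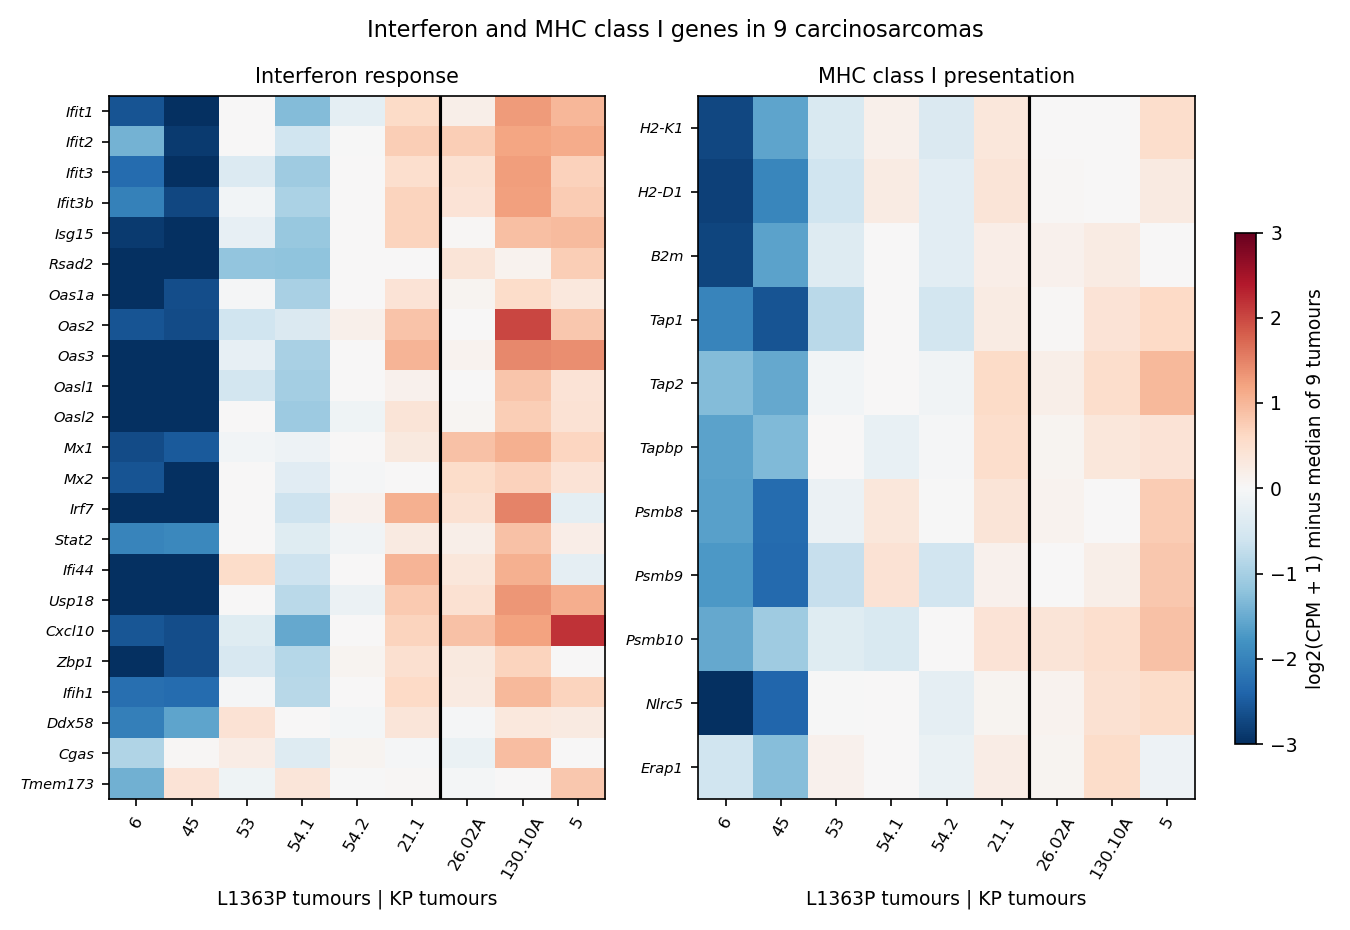
log2(CPM + 1) minus the median of the 9 tumours (colour) for members of the interferon response list (left) and of the MHC class I presentation list (right), with the 6 L1363P tumours left and the 3 KP tumours right of the line. L1363P tumours 6 and 45 are low for most genes of both lists, and tumour 21.1 resembles the KP tumours.

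The adipocyte, skeletal muscle and mitochondrially encoded lists also had medians away from 0, with 0 members passing the test. The adipocyte list had the largest median, 2.99 over 10 genes. Its summed level was 40.73 to 120.3 CPM in L1363P tumours (median 71.23) and 63.16 to 66.09 CPM in KP tumours (median 64.24), with overlapping groups. Some members were at very low levels. Lep, the adipokine leptin, had 0 to 3.04 CPM in L1363P tumours and 0, 0 and 0.0637 CPM in KP tumours, and Adipoq, the adipokine adiponectin, had 0 to 2.66 CPM in L1363P tumours and 0.0623, 0 and 0.255 CPM in KP tumours. Tumour 21.1 was at 0 for both, so the groups overlapped. The 10 skeletal muscle genes summed to 1931 CPM in L1363P tumour 6 and 2027 CPM in KP tumour 130.10A, against 3.72 to 90.4 CPM in the other 7 tumours. Acta1, skeletal muscle actin, was at 546 CPM in L1363P tumour 6 and 684 CPM in KP tumour 130.10A. The median of the muscle list was -0.72 with all tumours, -4.88 without L1363P tumour 6 and 5.77 without KP tumour 130.10A, so it gives no stable direction. Mitochondrially encoded genes, of which 7 of 13 listed members were tested, were all positive, with a median of 0.58, or 0.43 without tumour 6. They summed to 28820, 26100, 26430, 16300, 17390 and 12210 CPM in the L1363P tumours and 11870, 14140 and 17320 CPM in KP tumours, with overlapping groups. Here L1363P tumours 6, 45 and 53 were the high ones. The share of mitochondrial transcripts can move with RNA quality, for which the labels give no measure, and its part was not tested.

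Endothelial, macrophage, B cell and mesenchymal lists had medians between -0.12 and 0.11. Pecam1, an endothelial adhesion molecule, had 61.7 to 125 CPM in L1363P tumours and 86.3, 85.0 and 92.9 CPM in KP tumours (log2 fold change 0.02, SE 0.33).

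Single tumours stood out for genes of various kinds, of which some are named here. In L1363P tumour 45 Chil1, a chitinase-like secreted protein, was at 4414 CPM with 811.9 in the next tumour, and Btc, the EGF receptor ligand betacellulin, at 30.8 with 3.48. L1363P tumour 53 had 20580 CPM of Igfbp5, a binding protein of insulin-like growth factors, with 6592 in the next, and 426.9 CPM of the actin nucleator Cobl with 116.1. L1363P tumour 54.1 had 434.4 CPM of Glycam1, a mucin of milk and lymph node vessels, with 71.8 in the next, and 3598 CPM of the secreted protein gene Crispld2 with 981.7. Tumour 54.2, which shares its number with 54.1, had 2.78 CPM of Glycam1 and 399 of Crispld2, and led instead for Tnn, a tenascin, at 82.2 CPM, and Cav1, caveolin 1, at 1120 CPM. Cav1 is among the chromosome 6 neighbours of Met. L1363P tumour 21.1 had 653.5 CPM of Ltf, the milk protein lactoferrin, with 190.0 in the next, and 811.9 CPM of Ndufa4, a respiratory chain subunit, with 226.7. Among KP tumours, 26.02A led for Tspan8, a tetraspanin, at 258.9 CPM with 42 in the next tumour, 130.10A for Myh2, a fast muscle myosin, at 95.8 with 25.7, and 5 for Serpina12, a serine protease inhibitor, at 23.1 with 0.515.

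The same genotypes were also compared in adenocarcinomas of the run, 3 of L1363P and 5 of KP, all labelled 100% epithelial. KP adenocarcinoma 90.01A stood against that label, with Epcam at 1.473 CPM, Vim at 1970.0 CPM and Yap1 at 8775 CPM. The other 4 KP adenocarcinomas had 608 to 836.1 CPM of Epcam and 147 to 411 CPM of Yap1. The comparison called 66 genes (0.409%), 43 higher and 23 lower, 25 without 90.01A, and 21 to 538 with single tumours left out, with 2884 at an unadjusted p under 0.05 (17.9%). Its values are given only for the test of whether the genotype difference depends on histology. For 1 gene of 16147 (0.00619%) it did. Pold1, the catalytic subunit of replicative polymerase delta, had 21.5 to 33.8 CPM in L1363P carcinosarcomas (median 24.9) and 31.9, 37.1 and 58.4 CPM in KP carcinosarcomas. In adenocarcinomas it averaged 47.2 ± 14.3 CPM in L1363P (SD, n = 3) and 19.3 ± 6.62 CPM in KP tumours (SD, n = 5). The log2 fold changes were -0.70 (SE 0.23) in carcinosarcomas and 1.29 in adenocarcinomas (edgeR adjusted p = 0.0169), a difference of -2.0 (edgeR adjusted p = 0.0458). Without 90.01A the difference of Pold1 was -2.05 (edgeR adjusted p = 0.0677), and 0 genes passed. In carcinosarcomas 5 of 6 L1363P tumours were below all 3 KP tumours, and tumour 6 was the exception. The difference lost its call under 15 of 24 alternatives (adjusted p 0.0539 to 0.154), with log2 differences between -2.09 and -1.70 in those 15. The 15 were DESeq2 size factors, no filter, the fit without tumours 17, 4 and 90.01A, limma, and leaving out L1363P carcinosarcoma 45, 53, 54.1, 54.2 or 21.1, KP carcinosarcoma 5 (-1.70), L1363P adenocarcinoma 52, or KP adenocarcinoma 89.01A, 90.01A, 39 or 40.

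The next genes by the p-value of that difference did not pass. Pcna, the sliding clamp of replication, averaged 107 ± 11.7 CPM in L1363P carcinosarcomas (SD, n = 6) and 123 ± 11.4 CPM in KP carcinosarcomas (SD, n = 3), with -0.21 in carcinosarcomas against 0.97 in adenocarcinomas (edgeR adjusted p of the difference 0.25). Rab31, an endosomal GTPase, had 139.7 to 172 CPM in L1363P carcinosarcomas and 119.5, 97.0 and 115 CPM in KP carcinosarcomas, with no overlap (0.50, SE 0.22), and -1.05 in adenocarcinomas (edgeR adjusted p of the difference 0.229). Raly, an RNA-binding protein gene, had 202 to 286 CPM in L1363P carcinosarcomas and 287, 378 and 458 CPM in KP carcinosarcomas, with groups just apart (-0.54, SE 0.16), and 0.54 in adenocarcinomas (edgeR adjusted p of the difference 0.229). Dnajc18, a membrane co-chaperone, had 30.7 to 39.3 CPM in L1363P carcinosarcomas and 29.0, 27.4 and 26.7 CPM in KP carcinosarcomas (0.31, SE 0.16). For Brca1 the adenocarcinoma value was 1.00 and the difference between the histologies -1.58 (edgeR adjusted p = 0.25). Over the lists, the medians in carcinosarcomas and adenocarcinomas were -0.06 and 0.57 for homologous recombination, -0.14 and 0.95 for DNA replication and 0.11 and -1.22 for mesenchymal genes. Without KP adenocarcinoma 90.01A those adenocarcinoma medians were 0.59, 0.97 and -0.89. The interferon list had medians of -1.21 in carcinosarcomas and -1.51 in adenocarcinomas, the last of which was -0.74 without 90.01A, and the difference between the histologies passed the test for 0 of its members. Both comparisons use separate tumours, but the labels do not give the mesenchymal share of adenocarcinomas beyond the percentage of 100.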

How the data were processed

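RNA of 73 mammary tumours was sequenced from TruSeq stranded mRNA libraries on a HiSeq2500, per the labels' protocols. Tools listed in the submitters' processing notes are STAR 2.7.3a, featureCounts 2.0.0, cutadapt 2.10 and DESeq, with the build mm10. The strand setting of the counting is not given in these sources. The authors deposited raw counts per gene symbol (39438 symbols) and, in a second table, normalised log2 values (37148 symbols). Of the symbols, 24 had been turned into dates and held 0.1688% of counts. Gene positions are those of GENCODE vM21.

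Counts of the 29 tumours of run 5625, 13103749 to 17550129 per tumour, were filtered with filterByExpr (minimum count 10), scaled by TMM and fitted in 1 model of 6 groups with edgeR 4.0.16 (R 4.3.3, glmQLFit and glmQLFTest). P-values were adjusted by Benjamini-Hochberg over 16147 genes, with a threshold of 0.05. SEs and 95% intervals derive from the F statistic. Alternatives were other scalings, filters and fits, leaving out each tumour, limma 3.58.1 on the deposited log2 values, and DESeq2 1.42.0. Robust quasi-likelihood dispersions were added after seeing the data. The fit was also run on simulated counts, with results not given here. Those counts had the same spread for every gene and no outlying tumour, so they cannot show how tumour 6 affects the fit.

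The members and lists were chosen with earlier results of these data known. The rule for named genes took Brca1, Brca2, Palb2, Bard1 and Trp53, called genes, the 6 smallest p-values per direction among genes that differed by at least 1 log2 unit and averaged at least 1 in log2 CPM, defining members of lists, 3 genes per tumour, the ends of stretches of neighbouring genes, and the 6 smallest p-values per direction of the difference between histologies. Other genes, including list members named because their groups did not overlap, were chosen after their values were seen. The KB1P and KB2P tumours, from other runs, and the sarcomatoid tumours enter no comparison here. Some results are not reported here.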

Additional observations from a re-analysis of the deposited data

Results flagged for a closer look

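Among 55 sets of 6 values in the L1363P carcinosarcomas, 6 had a tumour far from the other 5 on the log2 scale. For sets picked without regard to their values, chance gives about 1 in 20. Some of these sets were of genes picked by their p-values in these tumours, Smpd2 and Wasf1 among them. The count therefore cannot be set against that rate and is a description. Of these 6, 5 were in tumour 6. Its Bard1 was low at 17.61 CPM, its Smpd2 and Wasf1 were high at 504.7 and 347.2 CPM, its summed p53 list was high at 703.7 CPM and its summed epithelial list was low at 440.6 CPM. The other was tumour 21.1, whose summed Nrf2 targets were low at 548.6 CPM. Pold1 stood out because its L1363P against KP difference differed between carcinosarcomas and adenocarcinomas, by -2.0 on the log2 scale in the edgeR interaction test.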

How the results depend on the processing

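For L1363P against KP carcinosarcomas the count of calls was 0 under every alternative run except DESeq2 (7), and 0 to 2 with single tumours left out. For the adenocarcinomas the main count of 66 became 140 with library totals only, 22 without a filter, 22 without tumours 17, 4 and 90.01A, and 780 with DESeq2. With single tumours left out it was 21 to 538, with 217 without L1363P tumour 7.2, 21 without L1363P tumour 26.2, 82 without L1363P tumour 52, 25 without KP tumour 90.01A, 538 without KP tumour 131.03A, 40 without 39 and 31 without 40. For the difference between histologies the main count of 1 became 0 with DESeq2 size factors, without a filter, without tumours 17, 4 and 90.01A and with limma, 86 with DESeq2, and 0 to 23 with single tumours left out, with 7 and 3 without L1363P adenocarcinomas 7.2 and 26.2, 2 without 52 or without KP carcinosarcoma 130.10A, and 23 without KP adenocarcinoma 131.03A. The causes were not tested.

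The difference in epithelial percentage was -2.0 to 3.93 points with single tumours left out (3.0 without KP tumour 5), and turned to -0.0667 without L1363P tumour 6, -2.0 without KP tumour 26.02A and -0.667 without L1363P tumour 21.1. Signs turned 5 times among the part of the named genes that was followed under the alternatives. Palb2 was -0.03 without L1363P tumour 53 (0.15 without 6, 0.18 without 21.1). Bard1 was 0.05 in the 80 to 90% range, 0.03 without L1363P tumour 6 and 0.14 without KP tumour 5 (-0.08 without L1363P tumour 45, -0.25 without KP tumour 26.02A). Ppp1r12b was 0.14 without KP tumour 5, and -2.16 to -1.64 without any other single tumour (-1.79 without L1363P tumour 45). Other genes given above also changed sign with a single tumour left out. For example, Met was 0.02 without L1363P tumour 6, and Mki67, Vim and Tmem173 were -0.14, 0.12 and 0.01 without KP tumour 5. Of the list medians 756 values kept within the spread and 4, all of skeletal muscle, did not. No paired analysis was possible because the L1363P and KP tumours share no tumour number.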
